A study of Mus musculus with 12 samples.

Results

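Cxcl9, Cxcl10 and Cxcl11 encode the chemokines that bind the receptor CXCR3. The set was chosen by gene symbol and holds 3 of the 23997 genes in the deposited RNA-seq values, and each file lists all 3. Cxcl9 and Cxcl11 passed the filter on low values through the LPS-treated libraries alone, and Cxcl10 through untreated WT libraries as well. The cells were bone marrow-derived macrophages (BMDMs) from male C57BL/6 mice aged 8 to 10 weeks, grown for 7 days with 10 ng/ml macrophage colony-stimulating factor. They were either wild type (WT) or Pim1-/-, a germline knockout made with CRISPR-Cas9 that removes exons I to V of Pim1. Both genotypes were left untreated or given lipopolysaccharide (LPS) at 100 ng/ml for 4 h, which gave 4 groups of 3 libraries each. Whether the replicates came from separate mice or separate cultures is not given in the sources used here, so the p-values measure the spread between these libraries, which may be technical.

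CXCR3 sits mainly on activated T cells and NK cells, and its ligands draw these cells to inflamed tissue. LPS is sensed by TLR4, which signals through NF-κB and, by way of TRIF, TBK1 and IRF3, to IFN-β, and secreted interferons then act back on the macrophage through JAK kinases and STAT proteins. Cxcl9 is known chiefly as an IFN-γ target, Cxcl10 answers to IRF3, NF-κB and both kinds of interferon, and Cxcl11 is an interferon target whose transcript in C57BL/6 mice carries a frameshift and gives no working chemokine. Pim1 is a serine/threonine kinase, and the comparison asks how far the mRNAs of these neighbouring genes differ between WT and Pim1-/- cells before and after LPS.

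The 3 genes lie side by side on the minus strand of chromosome 5 (RefSeq, GRCm38.p6). Cxcl9 spans 92321331 to 92328079, Cxcl10 spans 92346638 to 92348889 and Cxcl11 spans 92359544 to 92363296, and the whole cluster covers 41.966 kb. RefSeq annotates Cxcl9 and Cxcl10 as protein-coding genes and Cxcl11 as a transcribed pseudogene. The 250 bases upstream of the annotated start are shown for the members that have an entry in the promoter table, Cxcl9 (chr5:92328080-92328329, minus strand) and Cxcl10 (chr5:92348890-92349139, minus strand), because these neighbours differed most in their response. Sequences are RefSeq, 5′ to 3′ in the direction of the gene, and capitals mark matches to the motifs searched on both strands.
Cxcl9: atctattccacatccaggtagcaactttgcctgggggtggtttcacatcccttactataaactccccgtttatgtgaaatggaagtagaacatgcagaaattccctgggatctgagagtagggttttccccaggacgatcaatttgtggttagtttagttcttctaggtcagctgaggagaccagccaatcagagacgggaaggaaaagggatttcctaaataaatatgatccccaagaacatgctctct
Cxcl10: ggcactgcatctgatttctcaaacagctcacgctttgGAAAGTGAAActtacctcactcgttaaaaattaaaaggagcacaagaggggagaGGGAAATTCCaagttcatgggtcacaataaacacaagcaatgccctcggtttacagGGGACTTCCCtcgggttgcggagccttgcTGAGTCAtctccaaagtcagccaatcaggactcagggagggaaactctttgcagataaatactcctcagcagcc
The motifs were the core of the interferon-stimulated response element (GAAA, any 2 bases, then GAAA), the interferon-gamma-activated site known as GAS (TTCNNNGAA), the AP-1 site (TGANTCA) and the NF-κB consensus. The Cxcl10 window held GAAAGTGAAA for the response element at 213 to 204 bases upstream of the start, GGGAAATTCC at 159 to 150 and GGGACTTCCC at 103 to 94 for NF-κB, and TGAGTCA at 74 to 68 for AP-1. None of these 4 matches overlapped another. Among 32817 promoter windows of the same length, 2.97% held the response element core, 3.9% the NF-κB consensus, 6.75% the AP-1 site and 7.01% the GAS letters. The Cxcl9 window held no match to these 4 motifs and the Cxcl10 window held none to GAS, which says only that the letters are not in these windows.

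Levels are given in FPKM, fragment counts scaled to the length of the transcript and to the fragments mapped in the library, so that genes can be compared per length. Log2 fold changes were fitted with limma on log2(FPKM + 1), and a gene was called if its change passed 2-fold, its p lay under 0.05 and its false discovery rate (FDR, Benjamini-Hochberg over the 10581 genes tested) lay under 0.1. The added 1 shrinks the fold change of low values. In bulk RNA, fewer cells of a type and less RNA per cell cannot be told apart. Estimated from the step that 1 fragment makes in low values, the untreated libraries held between 37800000 and 45700000 fragments. The step could not be read in the LPS libraries, so their depth is unknown. Pim1, the deleted gene, was at 8.00 to 9.51 FPKM in untreated Pim1-/- libraries against 21.5 to 25.0 in WT, and at 205 to 236 against 630.2 to 665 after LPS, so its signal was lower but not absent.

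**Figure D1:**
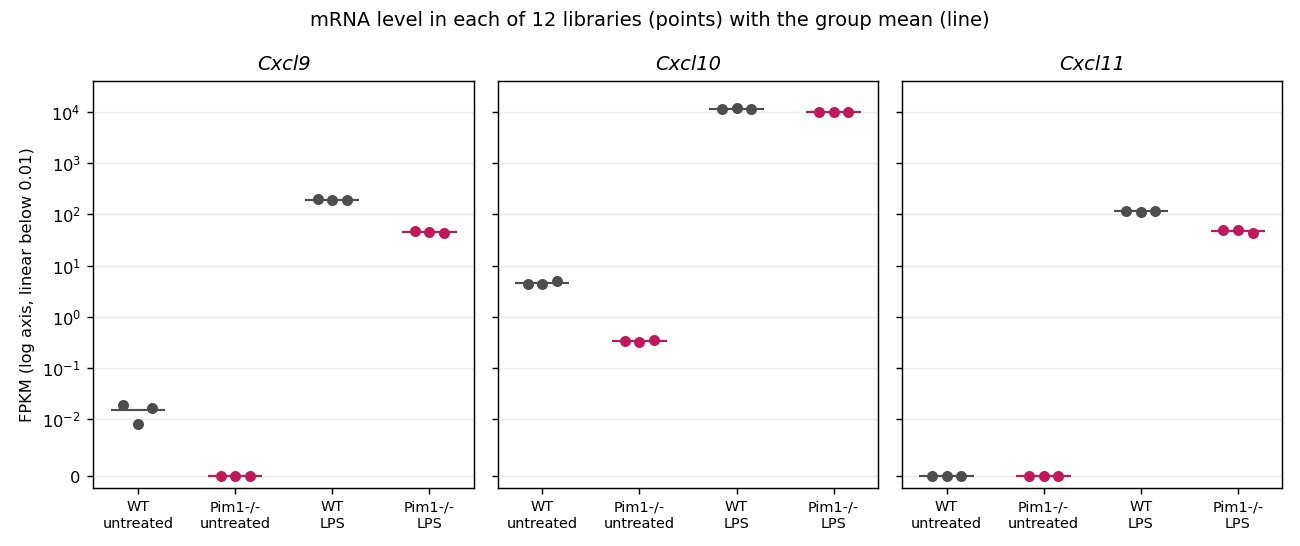
FPKM of Cxcl9, Cxcl10 and Cxcl11 in each library, on a log axis that is linear below 0.01, with WT in grey, Pim1-/- in magenta, points for the 3 libraries of a group and a line for their mean. On the deposited scale every LPS-treated Pim1-/- point lies below the WT points, by 4.32-fold in the means for Cxcl9, 2.42-fold for Cxcl11 and 1.18-fold for Cxcl10, while without LPS only Cxcl10 had more than a trace. Scaled to Actb, which moves the median of all genes to 0.98, the fitted difference after LPS was 1.21 for Cxcl10 and 0.16 for Cxcl11.

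Without LPS, Cxcl10 was the member with a measurable level, and that level was 13.7-fold lower in Pim1-/- cells. Untreated WT libraries held 4.35, 4.47 and 5.10 FPKM of Cxcl10. Untreated Pim1-/- libraries held 0.336, 0.329 and 0.349 FPKM. The Pim1-/- values were tightly grouped and lay far below the WT values, with no overlap. Groups did not overlap, with Pim1-/- lower, for 44.2% of all genes tested.

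In means ± SD of 3 libraries, Cxcl10 went from 4.64 ± 0.405 FPKM in WT to 0.338 ± 0.00996 FPKM without Pim1, which is 7.29% of the WT level. The limma log2 fold change was -2.07 (SE 0.05, 95% confidence interval -2.17 to -1.97, Benjamini-Hochberg FDR 5.5e-15), and Cxcl10 ranked 36 from the lowest of 10581 genes. It was among the 3.37% of genes called lower in this comparison, where 4.4% were called higher. Without the added 1 the log2 ratio of the means was -3.78. The estimated depth behind these levels was 147 to 200 fragments of Cxcl10 per WT library and 11.7 to 13.7 per Pim1-/- library, so the low group rests on few fragments.

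Cxcl9 was at the edge of detection before LPS. It was at 0.0195, 0.00913 and 0.0168 FPKM in untreated WT libraries, which corresponds to an estimated 1.98, 0.99 and 1.98 fragments, and was listed at 0 in the 3 untreated Pim1-/- libraries. Its log2 fold change was -0.02 (95% confidence interval -0.12 to 0.07, limma, Benjamini-Hochberg FDR 0.67), and a genotype difference was not detectable at this depth. The 6 libraries without LPS list Cxcl11 at 0, so nothing can be said of its genotype difference before LPS. Among the 3 ligands, the question of a genotype difference in untreated cells could therefore be asked for Cxcl10 alone.

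After LPS all 3 members were abundant in both genotypes, and the difference between genotypes was large for Cxcl9, smaller for Cxcl11 and slight for Cxcl10. WT libraries held 195.6, 193.6 and 191.7 FPKM of Cxcl9, and Pim1-/- libraries held 46.4, 45.2 and 42.8 FPKM. The genotypes did not overlap. Mean levels (± SD, n = 3 each) were 193.6 ± 1.93 FPKM with Pim1 and 44.8 ± 1.84 FPKM without it, which left 23.1% of the WT level. The log2 fold change was -2.09 (SE 0.04, 95% confidence interval -2.18 to -1.99, limma, Benjamini-Hochberg FDR 6.3e-15), and Cxcl9 ranked 53 from the lowest of 10581 genes.

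Cxcl11 was at 116.5, 110.3 and 117.3 FPKM in LPS-treated WT libraries and at 49.2, 48.8 and 44.1 FPKM in Pim1-/- libraries. Again the lowest WT library lay well above the highest Pim1-/- library. The means of 114.7 ± 3.78 and 47.4 ± 2.82 FPKM (SD, n = 3 each) put Pim1-/- cells at 41.3% of WT. The log2 fold change was -1.26 (SE 0.05, 95% confidence interval -1.37 to -1.15, limma, Benjamini-Hochberg FDR 5.0e-12), at rank 297 from the lowest. As the annotation marks this locus as a pseudogene in the strain's reference, the value is one of transcript and not of chemokine.

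Cxcl10 was at 11378.7, 11948.8 and 11564.1 FPKM in LPS-treated WT libraries and at 10011.0, 9943.5 and 9737.0 FPKM in Pim1-/- libraries. Every Pim1-/- library was below every WT library, but by little, with mean levels of 11630.5 ± 290.8 and 9897 ± 143 FPKM (SD, n = 3 each). Pim1-/- cells thus held 85.1% of the WT level. The log2 fold change of -0.23 (SE 0.05, 95% confidence interval -0.33 to -0.13, limma, Benjamini-Hochberg FDR 2.8e-04) exceeded the replicate spread and did not reach 2-fold, so Cxcl10 was not called. An FDR under 0.1 in this direction was met by 43.4% of all genes tested, and Cxcl10 ranked 3684 from the lowest. The FPKM summed over all genes was also lower in LPS-treated Pim1-/- libraries, at 713307 to 743912 against 837585 to 849323 in WT. A difference as slight as that of Cxcl10 may go with these sums, which was not tested.

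In this comparison 2 of the 3 members were called lower, where 5.15% of all genes tested were called lower, 3.51% higher and 8.66% in either direction. Groups that did not overlap, with Pim1-/- lower, were found for all 3 members and for 41.8% of all genes. For a single gene, 3 against 3 libraries cannot go below a two-sided exact permutation p of 0.1, and each member had this p. The study had itself shown all 3 members in its heatmap of interferon-stimulated genes that were lower in these same libraries, so their direction after LPS is not independent evidence. With quantile normalization Cxcl11 moved to a log2 fold change of -0.92 and was no longer called, and Cxcl10 moved to -0.05 (limma, Benjamini-Hochberg FDR 0.432).

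The values were also scaled to Actb, the reference mRNA of the study's RT-qPCR. Actb itself was at 36.9% of the WT level in Pim1-/- cells after LPS, and dividing by it moved the median log2 fold change of all genes from -0.03 to 0.98. On that scale Cxcl9 was at -0.65, Cxcl10 at 1.21 and Cxcl11 at 0.16. Relative to the moved median these are -1.63 for Cxcl9, 0.23 for Cxcl10 and -0.82 for Cxcl11, so the order of the members was kept. Before the median is taken off, the signs of Cxcl10 and Cxcl11 turned (limma, Benjamini-Hochberg FDR 1.1e-09 and 0.0664), and relative to the median Cxcl11 stayed below 0. In untreated cells, where Actb was at 77.9% of WT, Cxcl10 was at -2.39 on the Actb scale.

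The ratio of one member to another within a library does not depend on how that library was scaled. Cxcl9 amounted to 1.72%, 1.62% and 1.66% of the Cxcl10 level in LPS-treated WT libraries and to 0.464%, 0.454% and 0.440% in Pim1-/- libraries. The ratio was thus 3.68-fold lower in Pim1-/- cells, with no overlap. Cxcl11 amounted to 0.987% ± 0.0552 of Cxcl10 in WT and to 0.478% ± 0.0219 in Pim1-/- cells (SD, n = 3 each), a 2.06-fold difference.

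Cxcl9 and Cxcl11 also differed from each other. In LPS-treated WT libraries Cxcl9 stood at 168%, 175% and 163% of Cxcl11, above it in every library. In Pim1-/- libraries it stood at 94.3%, 92.6% and 97.0% of Cxcl11, below it in every library. The ratio was 1.78-fold lower in Pim1-/- cells. For each of the 3 ratios the two-sided exact permutation p was 0.1, and 0.1 after Benjamini-Hochberg adjustment over the 3 pairs, which is the smallest that 20 assignments of 3 against 3 libraries can give.

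**Figure D2:**
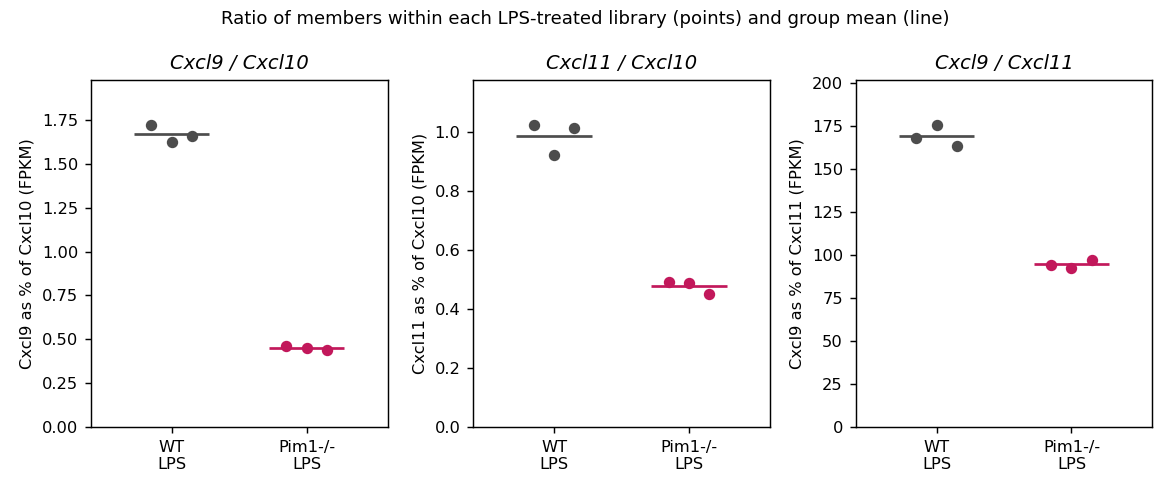
Ratios of the FPKM values of 2 members within each LPS-treated library, in percent from 0, with WT in grey, Pim1-/- in magenta, points for libraries and lines for the means. In each panel all 3 Pim1-/- points lie below all WT points, from 1.67% to 0.452% for Cxcl9 to Cxcl10, from 0.987% to 0.478% for Cxcl11 to Cxcl10 and from 169% to 94.7% for Cxcl9 to Cxcl11, and these ratios are free of the scaling of a library.

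The order of the levels after LPS was Cxcl10, Cxcl9, Cxcl11 in WT cells, each step larger than the spread of the libraries. In Pim1-/- cells Cxcl10 was again far above the others, while the libraries of Cxcl9 and Cxcl11 overlapped in range. Cxcl10 was among the most abundant mRNAs, at rank 5 in all WT libraries and at ranks 5, 5 and 6 in Pim1-/- libraries. Cxcl9 ranked 671 to 674 in WT libraries and 1915 to 2034 in Pim1-/- libraries, and Cxcl11 ranked 1030 to 1097 and 1817 to 1982.

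LPS raised each member in each genotype, and all 6 of these changes were called, in comparisons where 20.1% of all genes in WT and 14.6% in Pim1-/- cells were called higher. Cxcl9 and Cxcl11 passed the filter only through the LPS-treated libraries, so that they had to differ here. In WT cells the log2 fold change was 7.58 for Cxcl9, 11.01 for Cxcl10 and 6.85 for Cxcl11. In Pim1-/- cells it was 5.52 for Cxcl9, 12.85 for Cxcl10 and 5.59 for Cxcl11. The added 1 FPKM sets the size of these values for Cxcl9 and Cxcl11. With 0.1 FPKM in its place Cxcl9 was at 10.72 in WT and 8.81 in Pim1-/- cells, and Cxcl11 at 10.16 and 8.89. Cxcl10 ranked 4 from the highest of 10581 genes in WT cells and 1 in Pim1-/- cells. In mean FPKM, Cxcl10 rose 2507-fold in WT and 29274-fold in Pim1-/- cells, and no fold is given for Cxcl9 and Cxcl11, whose untreated values were at or near 0.

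The difference in the LPS response, the log2 change in Pim1-/- minus that in WT cells, could be tested for Cxcl10 alone. It was 1.84 (SE 0.07, 95% confidence interval 1.70 to 1.98, limma, Benjamini-Hochberg FDR 7.5e-12), among the 2.24% of genes called higher and at rank 26 from the highest. It went to 3.60 when scaled to Actb, where the median of all genes moved to 0.74. Cxcl9 and Cxcl11 were at or near 0 without LPS, so for them this difference only repeats the genotype difference after LPS. Cxcl10 started 13.7-fold lower in Pim1-/- cells and ended 1.18-fold lower.

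**Figure D3:**
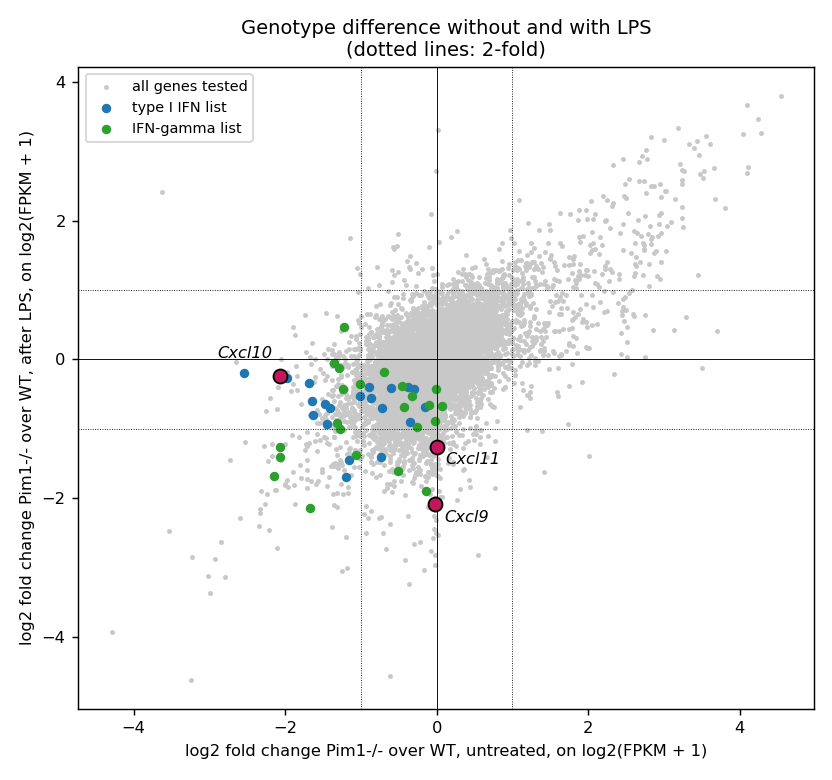
Log2 fold change of Pim1-/- over WT without LPS (x) against that after LPS (y), both on log2(FPKM + 1), for the 10581 genes tested in grey, with the lists of genes known as induced by type I IFN in blue and by IFN-γ in green, the 3 ligands in magenta and dotted lines at 2-fold. Cxcl10 lies at -2.07 and -0.23, Cxcl9 at -0.02 and -2.09 and Cxcl11 at 0.00 and -1.26. Scaling to Actb moves the median of all genes from -0.03 to 0.98 after LPS and from -0.05 to 0.26 without it. Cxcl9 and Cxcl11 were at or near 0 FPKM without LPS, so their x values cannot show a genotype difference.

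Among all genes, 231 of 10581 (2.18%) shared the calls of Cxcl10, lower in untreated Pim1-/- cells and not called after LPS. The calls of Cxcl9 and Cxcl11, lower after LPS and not called before, were shared by 418 genes (3.95%), and 123 genes (1.16%) were called lower in both. Of the 1443 genes that LPS raised in both genotypes, 65 (4.5%) had the calls of Cxcl10 and 210 (14.6%) those of Cxcl9 and Cxcl11. These are counts of calls, and a gene near 0 without LPS could not be called there.

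The genes whose levels ran most like each member were found from the root mean square difference of log2(FPKM + 1) over the 12 libraries, each gene centred on its mean. For Cxcl9, out of 10580 other genes, the nearest 2 were Il1rn at 0.126 and Edn1 at 0.206, which encode the IL-1 receptor antagonist and endothelin-1. Il1rn went from 710 to 180 FPKM between the genotypes after LPS. Cxcl11 came at rank 5 for Cxcl9 with 0.336, whereas Cxcl10 came at rank 1848 with 2.86.

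For Cxcl11 the nearest genes were Bcl2a1a at 0.167, Edn1 at 0.198 and Fpr2, a formyl peptide receptor gene, at 0.198, with Cxcl9 at rank 13 and Cxcl10 at rank 3530. Bcl2a1a has near-identical copies, so its reads may be split between them. For Cxcl10 the nearest were Ccl5 at 0.405, Il1b at 0.538 and Irg1 at 0.763, which encode a T cell-attracting chemokine, IL-1β and the enzyme that makes itaconate. Ccl5 had log2 fold changes between genotypes of -1.01 without LPS and -0.52 after it. Il1b had -0.77 and -0.94 and Irg1 -0.50 and -0.92, against -2.07 and -0.23 for Cxcl10. Untreated Il1b was at 0.956 FPKM in WT and 0.140 in Pim1-/- cells, and untreated Irg1 at 1.12 and 0.481. After LPS, Il1b was at 8515 and 4436 FPKM and Irg1 at 5202 and 2742. The added 1 shrinks the untreated differences at such levels, so the log2 values before and after LPS cannot be compared for these genes. These distances rest on 4 groups of libraries in which LPS raised all of these genes, and by Pearson's r over the same libraries 1, 0 and 1 of the 3 nearest genes of Cxcl9, Cxcl10 and Cxcl11 were found again.

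The receptor gene Cxcr3 was low throughout. It was at 3.18, 2.79 and 2.73 FPKM in untreated WT and at 2.69, 2.13 and 2.48 FPKM in untreated Pim1-/- libraries, and at 1.03, 1.14 and 1.04 against 0.679, 0.922 and 1.32 FPKM after LPS. The genotypes were narrowly apart without LPS and overlapped after it. Its log2 fold change was -0.18 (95% confidence interval -0.39 to 0.02) without LPS and -0.08 (-0.29 to 0.12) after it, and it was called in neither (limma, Benjamini-Hochberg FDR 0.0945 and 0.447). Of 12 marker genes of T and NK cells, the cells known to carry CXCR3 and to make IFN-γ, 9 were listed at 0 in every library and all were under 1 FPKM, and Ifng itself was listed at 0 in all 12 libraries.

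Ifnb1, the gene of IFN-β that links TLR4 to the interferon receptor, was listed at 0 in all untreated libraries. After LPS the WT libraries held 9.52, 7.80 and 8.17 FPKM and the Pim1-/- libraries 15.1, 17.0 and 14.5 FPKM. The mRNA was thus higher in every Pim1-/- library than in any WT library at this time, 1.83-fold in the means, with a log2 fold change of 0.80 (SE 0.07, limma, Benjamini-Hochberg FDR 3.9e-08) that stayed under 2-fold. Its sign was the same with quantile normalization (0.77) and scaled to Actb (1.94). This direction differs from the paper's own assays of LPS-treated Pim1-/- BMDMs. These gave less IFN-β mRNA by RT-qPCR, normalized to β-actin, and less secreted IFN-β by ELISA at a later time. The reason for the difference was not tested. The Cxcl9 and Cxcl11 mRNAs were lower in the same libraries in which Ifnb1 was higher, and a link between them was not tested.

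In the chain from IFN-β to STAT proteins, with 20 genes, 7 were called lower and 0 higher after LPS, and 4 were called lower without LPS. Among all genes tested, 5.15% were called lower and 3.51% higher after LPS, and 3.37% lower and 4.4% higher without it. The median log2 fold change of the chain after LPS was -0.65, against -0.03 for all genes. It was -0.34 with quantile normalization and turned to 0.77 when scaled to Actb, where the median of all genes was 0.98. Irf8, a transcription factor of macrophages and dendritic cells, was after LPS at 226 ± 6.30 FPKM with Pim1 and 58.4 ± 3.46 FPKM without it, and Irf7, which amplifies type I interferon genes, at 818 ± 24.3 and 396 ± 16.4 FPKM (SD, n = 3 each). Without LPS, Irf8 and Irf7 were called lower as well, at -1.24 and -1.71. Socs1 and Socs3, feedback inhibitors of cytokine receptors, were also called lower after LPS, at -1.49 and -1.30. Socs1 had the calls of Cxcl9, with -0.14 without LPS. Its untreated levels of 0.556 FPKM in WT and 0.411 in Pim1-/- cells were too low with 1 added to be called lower.

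Irf1, which binds the response element, had the calls of Cxcl10. Without LPS it stood at 33.9 ± 0.868 and 13.4 ± 0.688 FPKM in the WT and Pim1-/- groups (log2 fold change -1.28), and at 872 ± 10.5 against 676 ± 3.62 FPKM after LPS (-0.37, SD, n = 3 each). Among 18 genes from TLR4 to IRF3 and NF-κB, only Nfkb2, an NF-κB subunit, was called after LPS, at -1.06. Ikbke, a kinase that acts on IRF3, and Relb, another NF-κB subunit, were called lower without LPS, at -1.39 and -1.16, and had -0.94 and -0.55 after it. The median of the TLR4 list after LPS was -0.47, or -0.24 with quantile normalization. Scaled to Actb it was 0.87, where the median of all genes was 0.98.

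Of 20 genes known as induced by IRF3 or type I IFN, 11 were called lower without LPS and 3 after it. Among all genes tested, 3.37% were called lower without LPS and 5.15% after it. LPS raised all 20 in both genotypes, and among the 1443 genes so raised these shares were 7.62% and 17.9%. The list medians were -1.09 without LPS and -0.62 after it. The latter was -0.43 with quantile normalization and 0.82 when scaled to Actb, where the median of all genes was 0.98. The calls of Cxcl10 were shared by 9 of the 20, those of Cxcl9 by 1 and both calls by 2. Ifit3, an antiviral effector, stood without LPS at 8.50 ± 0.604 and 0.635 ± 0.179 FPKM in the WT and Pim1-/- groups (-2.54), and at 896 ± 16.4 and 782 ± 54.0 FPKM after LPS (-0.20, SD, n = 3 each). Ifit1 had -1.98 and -0.27, and Rsad2, the gene of viperin, had -1.68 and -0.34. The response to LPS was called higher in Pim1-/- cells for Ifit1, Ifit2, Ifit3 and Rsad2, as for Cxcl10, and lower for 0 of the 20. It was called higher for 2.24% of all genes tested.

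Mx1 and Oas2, antiviral genes of the same list, were called lower both before and after LPS, and Mx2 was called only after it. Untreated Mx2 averaged 0.843 FPKM with Pim1 and 0.103 FPKM without it, for a log2 fold change of -0.74. With 1 added, a level this low cannot drop 2-fold, so Mx2 could not be called lower before LPS. Mx1 stood after LPS at 897 ± 13.0 FPKM in WT against 276 ± 5.49 FPKM without Pim1 (mean ± SD, n = 3 each), with a log2 fold change of -1.70. Oas2 had -1.45 and Mx2 -1.41 after LPS. After LPS the list ran from -1.70 to -0.20.

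Of 24 genes known as induced by IFN-γ, 23 were tested, of which 12 were called lower without LPS and 8 after it. Among all genes tested these shares were 3.37% and 5.15%. The list medians were -1.01 without LPS and -0.68 after it. The latter was -0.59 with quantile normalization and 0.54 when scaled to Actb, where the median of all genes was 0.98. The calls of Cxcl9 were shared by 2, those of Cxcl10 by 6 and both by 6. Gbp4, an interferon-induced GTPase, had the calls of Cxcl9. It was at 0.134 and 0.0273 FPKM without LPS in WT and Pim1-/- cells, too low with 1 added to be called lower there. After LPS it was at 25.0 ± 0.903 and 5.96 ± 0.260 FPKM (-1.90, SD, n = 3 each). Fcgr1, the high-affinity Fcγ receptor gene, fell by 1.67 on the log2 scale without LPS and by 2.14 after it. Cd74, H2-Ab1 and H2-Eb1, of the MHC class II pathway, were called lower in both, at -1.69, -1.26 and -1.41 after LPS. The response to LPS was called higher in Pim1-/- cells for 3 of the 23, as for Cxcl10, and lower for 2. Gbp4 was among the latter, and with its untreated level near 0 this only repeats its difference after LPS.

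**Figure D4:**
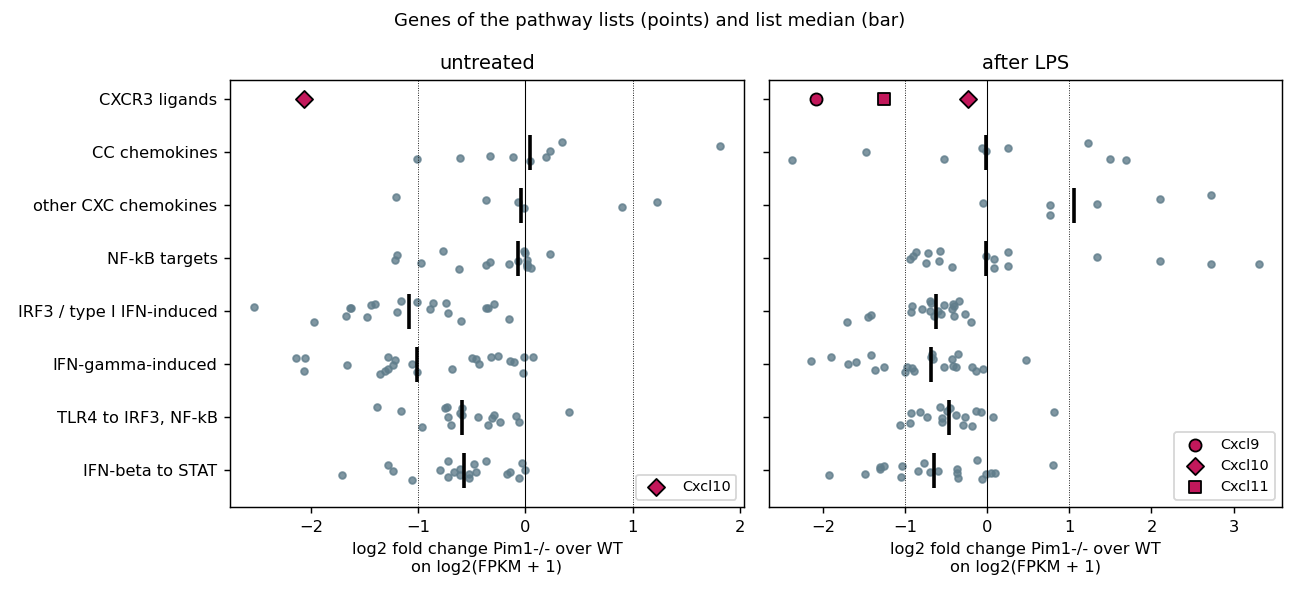
Log2 fold change of Pim1-/- over WT on log2(FPKM + 1) for the tested genes of each list (points) with the list median (bar), without LPS on the left and after LPS on the right, and the CXCR3 ligands in the top row (left panel Cxcl10 alone, the other 2 being at or near 0 FPKM). After LPS the interferon lists have medians from -0.68 to -0.62, between Cxcl11 at -1.26 and Cxcl10 at -0.23, and other CXC chemokines have a median of 1.05. Scaling to Actb turns the medians of the interferon lists to values from 0.54 to 0.82, below the all-gene median of 0.98 on that scale.

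Of 12 other CXC chemokines, 6 were tested. After LPS 3 of these were called higher in Pim1-/- cells and 0 lower, where 3.51% of all genes tested were called higher. The list median was 1.05, or 1.22 with quantile normalization and 2.45 when scaled to Actb. The 3 called higher were the neutrophil attractants Cxcl1, Cxcl2 and Cxcl3. Cxcl1 rose from 254 ± 17.5 FPKM with Pim1 to 1674 ± 119 FPKM without it (2.72), and Cxcl3 from 47.0 ± 3.30 to 205 ± 8.75 FPKM (2.10, SD, n = 3 each). Cxcl16, a transmembrane chemokine, had the calls of Cxcl10, with -1.21 without LPS and -0.05 after it, and its response to LPS was likewise called higher. Pf4, the platelet chemokine gene, was called higher without LPS at 1.23.

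Of 17 tested genes known as NF-κB targets in LPS-treated macrophages, 4 were called higher and 0 lower after LPS. Among all genes tested, 3.51% were called higher and 5.15% lower. The median of the NF-κB targets was -0.01, or 0.18 with quantile normalization and 1.44 when scaled to Actb. The 4 called higher were Cxcl1, Cxcl2, Cxcl3 and Csf2, the gene of GM-CSF, which had 3.31. Without LPS, Nfkbiz and Icam1 were called lower at -1.22 and -1.20. Among 9 CC chemokines that LPS or interferon induces, 3 were called higher after LPS, Ccl2 at 1.50, Ccl7 at 1.23 and Ccl17 at 1.69. Another 2 were called lower after LPS, Ccl8 at -2.37 and Ccl12 at -1.47. The list median was -0.01, or 0.29 with quantile normalization and 1.44 when scaled to Actb. Ccl8 and Ccl12 had the calls of Cxcl9, and Ccl5 those of Cxcl10, at -1.01 without LPS. Ccl2 was called higher without LPS as well, at 1.82. Untreated Ccl8 stood at 0.711 FPKM in WT and 0.117 in Pim1-/- cells, and untreated Ccl12 at 0.210 and 0.112. At such levels the added 1 keeps a drop under 2-fold, so neither could be called lower there.

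Within 500 kb of the cluster, 33 other genes are annotated, of which 18 are in the files and 11 were tested. After LPS 2 of these 11 were called, both lower, the long noncoding RNA U90926 at -1.56 and Naaa, an acid amidase gene, at -1.32. Among all genes tested, 5.15% were called lower after LPS. Without LPS 0 of the 11 were called, with log2 fold changes from -0.42 to 0.58, and U90926 was near 0 FPKM there. After LPS the 11 ranged from -1.56 to 0.60 with a median of 0.05. Art3 runs on the plus strand across Cxcl10 and Cxcl11 and was at most 0.359 FPKM in any library. The library kit keeps strand, but the strand setting of the counting is not given in the sources used here.

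**Figure D5:**
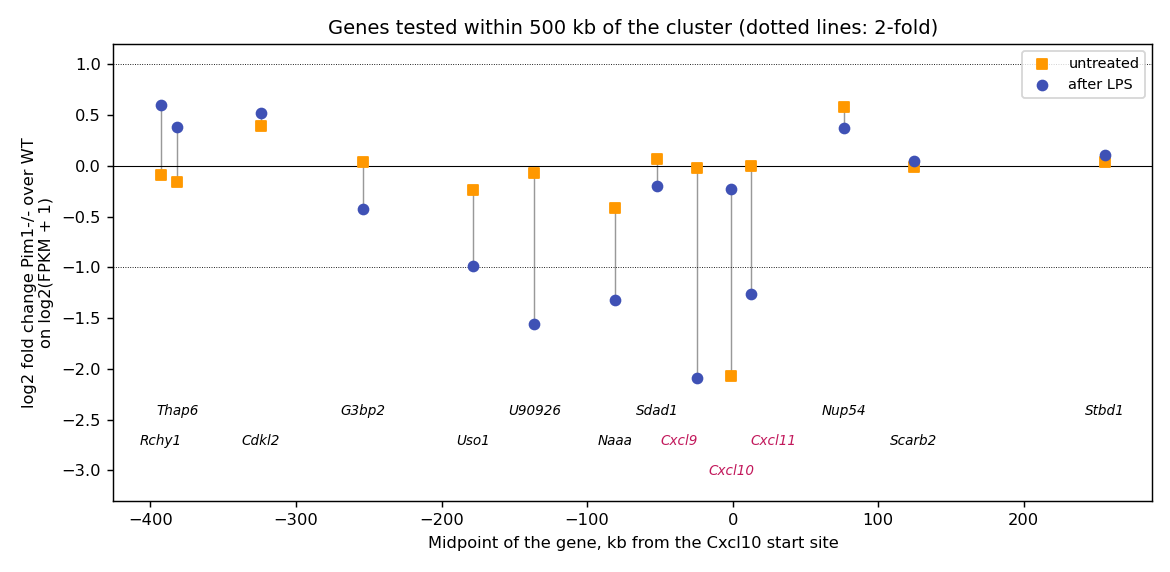
Log2 fold change of Pim1-/- over WT on log2(FPKM + 1), on the deposited scale, for the 3 ligands (magenta names) and the 11 other tested genes within 500 kb, by the distance of the gene's midpoint from the Cxcl10 start in kb, with squares for untreated cells, circles for LPS and dotted lines at 2-fold. Cxcl10 alone lies below -1 without LPS, while after LPS Cxcl9, Cxcl11, U90926 and Naaa do. Without LPS, Cxcl9, Cxcl11 and U90926 were at or near 0 FPKM, so they could not lie below -1 there.

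The libraries differed between genotypes in more than the interferon genes. All 9 macrophage markers were measured, and their summed level was 15948 to 17813 FPKM in LPS-treated Pim1-/- libraries against 30856 to 31355 in WT, and 14411 to 15330 against 27943 to 29994 without LPS. Lyz2, the lysozyme gene, made up most of this sum, at a mean after LPS of 26785 FPKM with Pim1 and 13680 FPKM without it. Of the 9, 3 were called lower after LPS and 4 without it, where 5.15% and 3.37% of all genes tested were called lower. The log2 fold changes of the 9 markers after LPS ran from -2.14 for Fcgr1, an Fc receptor gene, to -0.13 for Cd14, the LPS co-receptor gene. Their median was -0.90, or -0.57 with quantile normalization. It turned to 0.51 when scaled to Actb, where the median of all genes was 0.98. Of 8 markers of dividing cells, 7 were called higher in Pim1-/- cells after LPS and 8 without it. Among all genes tested, 3.51% and 4.4% were called higher. Summed levels of these 8 were 163 to 177 FPKM against 36.3 to 38.0 in WT after LPS. Without LPS they were 358 to 369 against 22.1 to 26.2. Mki67 was the marker not called after LPS, at a mean of 28.6 FPKM in WT and 26.2 in Pim1-/- cells (-0.12). It made up most of the WT sum there. The part of these marker differences in the levels of the CXCR3 ligands was not tested. Markers of dendritic, B, mast, stromal and erythroid cells and of neutrophils summed to at most 8.22 FPKM per list in any library.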

How the data were processed

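RNA-seq libraries were made from BMDM RNA with a stranded mRNA kit. Per the labels, reads passed through bcl2fastq 2.20.0.422, cutadapt 1.18, TopHat2 2.0.13 and Cuffdiff 2.2.1 with build mm10, whereas the methods name rat rn5. The authors deposited a column of values per library without a unit in the header, read here as FPKM from their use of Cuffdiff and from column sums of 452511 to 849323. Sums this unequal mean that FPKM levels are not shares of a fixed total. The sources used here do not give the library normalization, the annotation or the strand setting. The number of columns without a sample was 0.

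A gene was tested if 3 or more of the 12 libraries reached 1 FPKM (10581 genes), and log2(FPKM + 1) was fitted with limma 3.58.1 in R 4.3.3 as 4 group means with a mean-variance trend. The thresholds of the methods (2-fold, p under 0.05, FDR under 0.1) were used in both directions. Ratios of members were compared by two-sided exact permutation tests. The fit was tested on simulated data. Depth was estimated in untreated libraries from low values of single-transcript genes longer than 2000 nt, with fragments assumed to be 200 nt, of which 69.3% to 77.6% lay within 0.05 of whole fragments. Fragment estimates cover counting error only.

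The members, lists and tests were chosen with earlier results of these data known. Named genes are the members, Pim1, Actb and Cxcr3, the 3 genes nearest each member (1 is not reported here), tested neighbours that were called or adjoin a member, and, per list, called genes with a fold among the 3 largest in either direction. Ifnb1, Ifng, Ifit2 and the marker Mki67 were named beside these after their values were seen. Adgre1 was found under its older symbol Emr1, and Ly6g was not analysed here. Same-numbered libraries deviated together (r over 3646 genes of at least 10 FPKM in each library) at 0.33, 0.37 and 0.46 between untreated genotypes and at 0.43, 0.54 and 0.68 between the treatments in Pim1-/- cells, each over 0.1, so the numbers were taken to pair these libraries. Between genotypes after LPS r was 0.02, 0.37 and 0.19, and between treatments in WT cells it was -0.10, 0.14 and 0.19. This rests on the values, since the labels do not say what a number marks. The main fit had no term for the pairing, and the permutation tests took libraries as unpaired. A fit with a replicate block is among the alternatives given in the closing section. Python 3.11.15, pandas 2.3.3, numpy 2.4.6, scipy 1.17.1 and matplotlib 3.10.9 were used.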

Additional observations from a re-analysis of the deposited data

Results flagged for a closer look

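The genotype difference of Cxcl10 changed with LPS, by a test of the difference itself (limma contrast of the LPS response in Pim1-/- minus that in WT cells, n = 3 per group). The value was 1.84 (Benjamini-Hochberg FDR 7.5e-12), and it ran from 1.83 to 3.60 over the other scalings and the smaller pseudocount. Cxcl10 was 13.7-fold lower in Pim1-/- cells without LPS and 1.18-fold lower with it. For Cxcl9 and Cxcl11 such a change could not be tested, because their untreated libraries were at or near 0.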

How the results depend on the processing

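Leaving out each library in turn changed no call of the members for genotype after LPS and LPS in each genotype, or of Cxcl10 in untreated cells and in the difference in response. The log2 fold change after LPS ran from -2.11 to -2.06 for Cxcl9, from -0.25 to -0.21 for Cxcl10 and from -1.29 to -1.21 for Cxcl11, that of Cxcl10 in untreated cells from -2.11 to -2.01, and its difference in response from 1.78 to 1.88. With the replicate block the counts of calls were 915 after LPS, 824 in untreated cells, 3686 for LPS in WT, 2649 for LPS in Pim1-/- cells and 707 for the difference in response, and the block changed no call of a member in these same comparisons. The counts without it were 916, 823, 3686, 2649 and 706. A pseudocount of 0.1 gave 1442 calls after LPS and 1075 for the difference in response, and moved Cxcl10 to -3.43 in untreated cells and 3.20 in the difference in response. An FDR under 0.05 without a fold threshold gave 8194, 7904, 9453, 8954 and 6657 calls in the same order, and called Cxcl10 after LPS at -0.23. Quantile normalization took Cxcl11 after LPS to -0.92, under 2-fold, and raised the lower share of calls from 42.2% to 52.4% for LPS in WT. Scaling to Actb, itself lower in Pim1-/- cells, gave 5185 calls after LPS, 9108 and 7884 for LPS in WT and Pim1-/- cells and 3103 for the difference in response. The lower share of calls moved from 59.5% to 0.636% after LPS, from 43.4% to 16.4% in untreated cells, from 42.2% to 95.5% and from 41.6% to 92.1% for LPS in WT and Pim1-/- cells and from 66.4% to 7.03% for the difference in response. It left Cxcl9 at -0.65 after LPS and turned Cxcl10 to 1.21 and Cxcl11 to 0.16, with the median of all genes moved to 0.98; ratios between members do not depend on it. With a pseudocount of 1 these ratios differed by -1.86, -0.83 and -1.03 on the log2 scale, against -1.88, -0.84 and -1.04. Other filters, median-ratio scaling, a fit without a trend and a fit of only the groups compared kept each of these calls and each count within 1.5 times. The ratio of Cxcl9 to Cxcl10 over both treatments was not run, because Cxcl9 was listed at 0 in untreated Pim1-/- cells. Depth limits the untreated values of Cxcl9 and Cxcl11.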
